A study of Mus musculus with 8 samples.

Results

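Growth plate and hedgehog genes were followed in the annulus fibrosus (AF), the fibrous outer ring of the intervertebral disc, of *Abcc6* KO and WT mice. The set was named by symbol and holds 10 genes, namely *Ihh*, *Pthlh*, *Ptch1*, *Gli1*, *Pth1r*, *Fgfr3*, *Panx3*, *Ucma*, *Snorc* and *Smpd3*. Of these, 9 had 1 probe set each, among the 22206 probe sets compared. *Pthlh*, which encodes parathyroid hormone-related protein (PTHrP), was matched to no probe set by symbol, gene identifier or accession and was not analysed here. AF of all lumbar discs was pooled within each mouse, and 1 Mouse Clariom S array was run per mouse. The 4 KO mice (mice 6, 7, 8 and 9) carried a global deletion of *Abcc6*, and the 4 WT mice (mice 1, 2, 3 and 5) did not. All 8 mice were C57BL6J females aged 7 months, and no treatment is named for them in the labels. Because the deletion is global, differences cannot be assigned to loss of *Abcc6* within the disc. Values are the deposited log2 signal, so that a difference of 1 is a doubling.

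In the growth plate, chondrocytes proliferate in columns, enlarge and are replaced by bone. Prehypertrophic chondrocytes secrete Indian hedgehog, which binds Patched1, frees Smoothened and activates the GLI transcription factors, while PTHrP acts on its receptor PTH1R to hold cells back from hypertrophy in a feedback loop. *Ptch1* and *Gli1* are themselves transcribed in response to hedgehog and serve as readouts of the pathway. FGFR3 restrains chondrocyte proliferation. In the mouse spine, such cells lie in the vertebral growth plates and cartilaginous endplates next to the AF.

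The arrays measured a mixture of tissues. Array to array correlations ran from 0.893 to 0.969. Background was taken as the median negative control signal of each array, which was 5.40 to 6.0 log2 on KO arrays and 5.43 to 5.82 log2 on WT arrays. Positive controls stood above it by a median of 2.37 to 4.30 log2 on KO arrays and 3.17 to 4.28 log2 on WT arrays, lowest in KO mouse 7. *Abcc6* was above background on 1 of 8 arrays (KO mouse 6) and therefore checks no genotype. Of the defining markers of AF and tendon, *Col1a1*, *Col1a2* and *Fmod* were above background on all 8 arrays, *Thbs4* on 5, *Tnmd* on 4, *Mkx* on 1 and *Scx* and *Kera* on 0. All 10 neutrophil markers and 7 of 8 osteoblast and osteocyte markers were above background on all 8 arrays, so that RNA of marrow and bone was present. The neutrophil markers averaged 16.30 to 18.34 log2 in KO mice and 17.61 to 18.32 log2 in WT mice. Only 2 of 5 nerve markers were measured, and their mean was 6.87 to 7.44 log2 in KO mice against 7.68 to 10.81 log2 in WT mice, the 1 marker mean whose genotypes did not overlap. The part of these tissues in the results below was not tested beyond the values given. In bulk tissue, fewer cells of a type and less RNA per cell cannot be told apart.

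None of the 9 genes differed between KO and WT mice at the study's cutoff, an unadjusted p of at most 0.01 with a fold change of at least 1.75. Over all probe sets compared, 161 (0.725%) passed that cutoff in limma, a linear model that shares variance between probe sets. After Benjamini-Hochberg adjustment, 0 of the 9 genes and 0.0% of all probe sets passed. An alternative test, which the paper names for other data and not for the arrays, called 0 of the 9 genes too. In limma 1 of the 9, *Ihh*, had an unadjusted p under 0.05, as had 5.28% of all probe sets. The genotypes overlapped for all 9 genes, whereas they did not overlap for 2.53% of all probe sets. KO means were higher for 4 genes and lower for 5. The median log2 fold change was −0.18, against 0.03 over all probe sets and −0.08 over the 14255 above background on at least 4 arrays. The sign of the median of the 9 genes was not stable. It was 0.0495 with quantile normalization, 0.0283 with array quality weights and 0.22 with the control contrast as a covariate, and it ran from −0.43 without KO mouse 6 to 0.0736 without KO mouse 7.

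**Figure D1:**
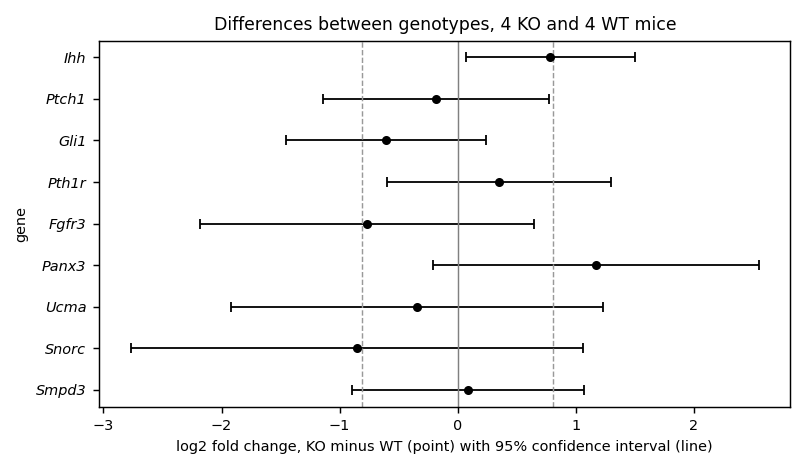
KO minus WT difference (log2, horizontal axis) of the 9 measured genes from limma, with 95% confidence intervals as bars (4 KO and 4 WT mice) and dashed lines at a 1.75-fold change. The interval of *Ihh*, 0.07 to 1.5, is the 1 that does not include 0, and all 9 intervals reach inside the dashed lines.

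*Ihh*, the hedgehog ligand, was at background. The signal was 5.66, 5.44, 6.02 and 5.32 log2 in KO mice 6, 7, 8 and 9, against 4.95, 5.46, 4.23 and 4.67 log2 in WT mice 1, 2, 3 and 5. Only KO mouse 8 exceeded the negative control median of its own array, and 2 of 4 KO mice lay above every WT mouse. The mean was 5.61 ± 0.31 log2 in KO mice and 4.83 ± 0.52 log2 in WT mice (SD, n = 4 each), a log2 fold change of 0.78 (SE 0.32, 95% confidence interval 0.07 to 1.5, adjusted p = 0.848 from limma). By exact permutation of the genotypes, the 2-sided p was 0.0857, where 4 mice against 4 allow no p below 0.0286. With a looser cutoff, an unadjusted p of at most 0.05 with a 1.5-fold change, *Ihh* was the 1 gene of the 9 to pass, as did 5.24% of all probe sets. Since the signal was not above background on 7 of 8 arrays, *Ihh* transcript was not shown to be measured in either genotype.

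*Ptch1*, the receptor that holds the pathway off and is induced by it, was far above background in every mouse. KO mice 6, 7, 8 and 9 gave 13.27, 11.74, 12.75 and 12.29 log2, and WT mice 1, 2, 3 and 5 gave 12.05, 12.88, 13.61 and 12.25 log2. The ranges overlapped, with KO mouse 7 lowest and WT mouse 3 highest. The KO mean of 12.51 ± 0.65 log2 and the WT mean of 12.70 ± 0.70 log2 (SD, n = 4 each) differed by −0.18 (SE 0.43, 95% confidence interval −1.14 to 0.77, adjusted p = 0.925 from limma). The exact permutation test gave p = 0.714.

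*Gli1*, a transcription factor and target of the pathway, lay lower in 3 of 4 KO mice than in any WT mouse. Signal was 7.19, 6.65, 6.55 and 6.72 log2 in KO mice 6, 7, 8 and 9, against 7.31, 6.78, 8.47 and 6.98 log2 in WT mice 1, 2, 3 and 5. All 8 values exceeded the negative control median, but only 2 exceeded the 75th percentile of the negative controls. Means of 6.78 ± 0.28 log2 in KO mice and 7.39 ± 0.75 log2 in WT mice (SD, n = 4 each) gave a log2 fold change of −0.61 (SE 0.38, 95% confidence interval −1.45 to 0.24, adjusted p = 0.848 from limma, exact permutation p = 0.143). WT mouse 3 carried much of it, and without that mouse the log2 fold change was −0.25.

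**Figure D2:**
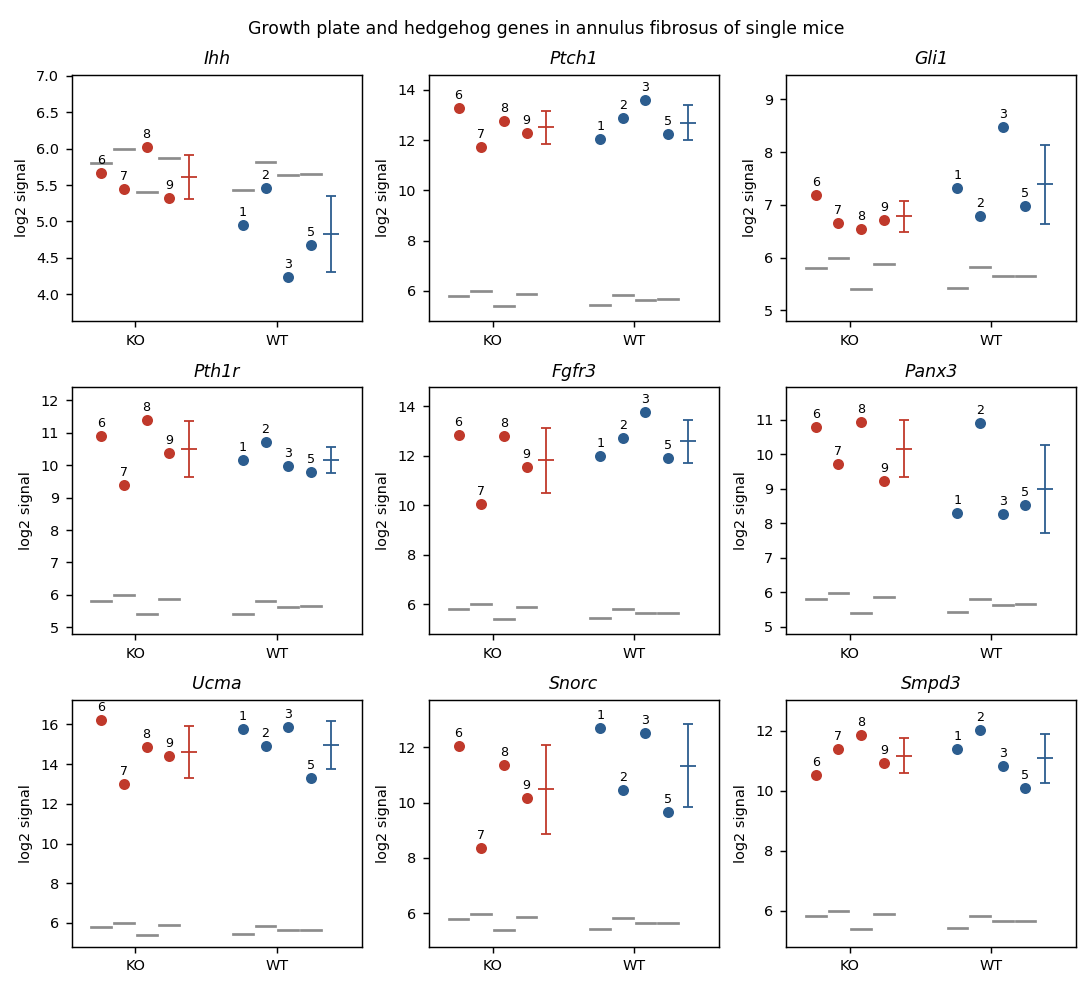
Log2 signal (vertical axes) of each measured gene in 4 KO mice (left in each panel) and 4 WT mice (right), with points numbered by mouse, group means with SD, and grey bars at the negative control median of each array. *Ihh* lies below the grey bar on 7 of 8 arrays, the other 8 genes lie above it in every mouse, and the KO and WT points overlap in all 9 panels.

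The promoter window of *Ptch1* is shown because this gene is a well known direct GLI target. It is the RefSeq sequence of GRCm38.p6, chr13:63565686-63565985 on the minus strand, from 250 bases before to 50 bases after the annotated start. A search of both strands for the GLI letters GACCACCCA found no match, so no base is in capitals.
*Ptch1*: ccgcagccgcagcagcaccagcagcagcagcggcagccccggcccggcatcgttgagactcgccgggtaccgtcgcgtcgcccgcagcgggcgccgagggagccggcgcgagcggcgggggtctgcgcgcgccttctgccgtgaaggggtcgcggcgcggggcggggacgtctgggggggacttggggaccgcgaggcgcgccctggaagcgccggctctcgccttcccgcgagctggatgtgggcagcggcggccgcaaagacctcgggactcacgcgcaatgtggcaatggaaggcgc
RefSeq windows were at hand for 6 of the 10 genes (*Ihh*, *Pthlh*, *Ptch1*, *Pth1r*, *Fgfr3* and *Ucma*), 9 windows in all. The letters were in 0 of these 9 and in 0.253% of all 32851 windows, which says only that they are not written in these stretches.

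None of the other hedgehog genes measured passed the cutoff. Of 34 listed ligand, receptor, transduction and target genes, 32 were measured, 10 were higher and 22 lower in KO mice, and 0 passed in limma. Among all probe sets compared, 11633 were higher, 10573 were lower and 0.725% passed. Of the 32, 1 had an unadjusted p under 0.05, as had 5.28% of all probe sets. The median log2 fold change of the 32 was −0.15, against 0.03 over all probe sets and −0.08 over those above background on at least 4 arrays. Only 12 of the 32 were above background on all 8 arrays. *Csnk1a1*, a casein kinase that phosphorylates GLI proteins and many other substrates, had the smallest p of the list. It stood at 10.71, 9.65, 11.40 and 10.13 log2 in KO mice 6, 7, 8 and 9, against 11.40, 11.72, 12.16 and 11.40 log2 in WT mice 1, 2, 3 and 5. KO mouse 8 and the lowest WT mouse were nearly level. The genotypes did not overlap for this 1 of the 32 genes, as for 2.53% of all probe sets. The log2 fold change of *Csnk1a1* was −1.20 (SE 0.39, adjusted p = 0.848 from limma). Next came *Foxf1*, a hedgehog target in mesenchyme, at −0.999 (SE 0.47, above background on 5 arrays), and *Spop*, a ubiquitin ligase adaptor that targets GLI proteins, at −0.97 (SE 0.50).

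WT mouse 3 stood apart for many of these genes, mostly upwards. It had the highest value of 13 of the 32 other hedgehog genes (40.6%) and of 3 of the 9 members (*Ptch1*, *Gli1* and *Fgfr3*), where 13.6% of all probe sets were highest in it. It had the lowest value of 6 of the 32 (18.8%), among them the ligands *Shh* and *Dhh*, and of 2 of the 9 members (*Ihh* and *Panx3*), where 14.8% of all probe sets were lowest in it. Of the ligands, *Shh* was above background on 8 arrays, *Ihh* on 1 and *Dhh* on 0. *Shh* exceeded the 75th percentile of the negative controls on only 4 arrays and the 95th on 0. High values in WT mouse 3 were not confined to hedgehog genes. It was also highest for 8 of 22 other growth plate signalling genes (36.4%) and 4 of 12 chondrocyte markers (33.3%). For the chondrocyte markers this was not particular to WT mouse 3, since KO mouse 8 was highest for 5 of the 12 (41.7%). The chondrocyte marker mean was 11.06 log2 in KO mouse 8, the highest, and 10.99 log2 in WT mouse 3. Among the 12 hedgehog genes above background on all arrays, WT mouse 3 was highest for 7, including the ligand-binding *Boc*, *Cdon* and *Hhip*. *Hhip*, an antagonist that binds hedgehog and is induced by it, was 11.52, 11.12, 11.68 and 11.09 log2 in KO mice 6, 7, 8 and 9, against 11.05, 11.48, 12.49 and 11.76 log2 in WT mice 1, 2, 3 and 5. WT mouse 3 had the lowest mean of the osteoblast and osteocyte markers (9.47 log2) and of the nucleus pulposus markers (6.03 log2) among the 8. *Boc*, *Cdon*, *Hhip*, *Shh* and *Dhh* were named after their values were seen.

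**Figure D3:**
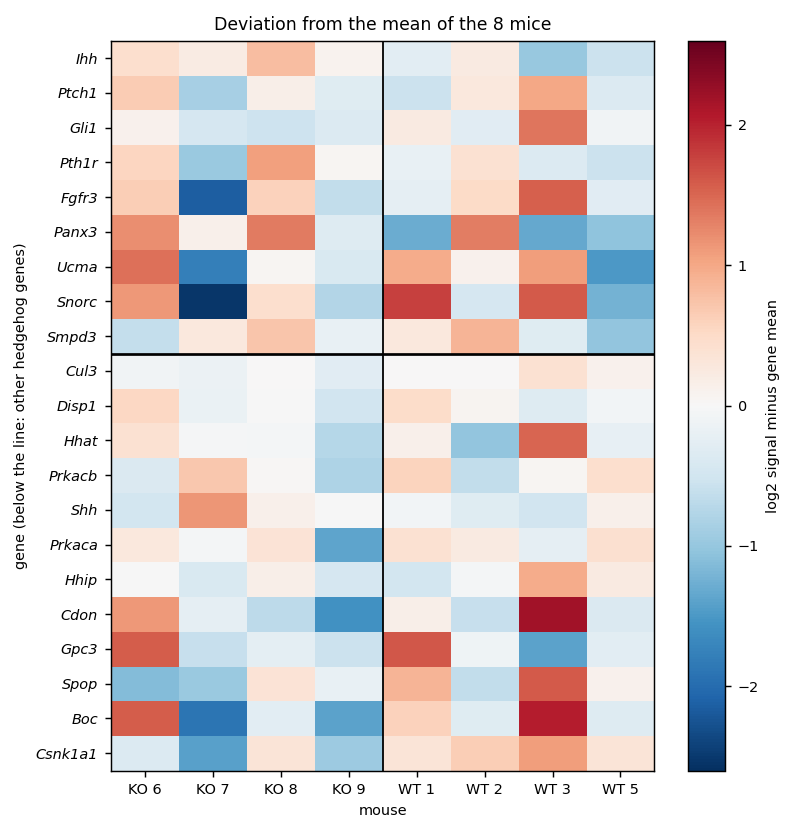
Deviation of each gene from its mean over the 8 mice (log2, colour scale) for the 9 measured genes and the 12 other hedgehog genes above background on all arrays, with KO mice on the left and WT mice on the right. KO mouse 7 is lowest for 5 of the 9 genes, and WT mouse 3 is highest for 3 of the 9 and 7 of the 12 and lowest for 2 of the 9.

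*Pth1r*, the receptor for PTHrP and parathyroid hormone, which osteoblasts also carry, varied more within KO mice than between the genotypes. Values were 10.90, 9.38, 11.40 and 10.38 log2 in KO mice 6, 7, 8 and 9 and 10.15, 10.73, 9.99 and 9.78 log2 in WT mice 1, 2, 3 and 5, so that KO mice held both the highest and the lowest value. Means of 10.51 ± 0.86 log2 in KO mice and 10.16 ± 0.41 log2 in WT mice (SD, n = 4 each) gave a log2 fold change of 0.35 (SE 0.43, 95% confidence interval −0.60 to 1.30, adjusted p = 0.866 from limma, exact permutation p = 0.514). It was 0.0554 without KO mouse 8, 0.73 without KO mouse 7 and 0.71 with the control contrast as a covariate.

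*Fgfr3*, the receptor that slows chondrocyte proliferation, lay lower in 2 of 4 KO mice (mice 7 and 9) than in any WT mouse. It measured 12.83, 10.06, 12.80 and 11.56 log2 in KO mice 6, 7, 8 and 9, against 11.97, 12.70, 13.76 and 11.90 log2 in WT mice 1, 2, 3 and 5. KO mouse 7 was the lowest and WT mouse 3 the highest of the 8. The KO mean was 11.81 ± 1.31 log2 and the WT mean 12.58 ± 0.86 log2 (SD, n = 4 each), with a log2 fold change of −0.77 (SE 0.64, 95% confidence interval −2.19 to 0.64, adjusted p = 0.848 from limma, exact permutation p = 0.371). Without KO mouse 7 it was −0.19.

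The mean of 12 chondrocyte markers moved with *Fgfr3*. That mean was 9.84 to 11.06 log2 in KO mice, lowest in KO mouse 7, and 10.19 to 10.99 log2 in WT mice, and 8 of the 12 markers were above background on all 8 arrays. With the marker mean as a covariate, chosen after the values were seen, the log2 fold change of *Fgfr3* was −0.82 (SE 0.25) and *Fgfr3* passed the study's cutoff, as did 1.09% of all probe sets. Its adjusted p was 0.746 in that limma model. With the control contrast as the covariate instead, the log2 fold change of *Fgfr3* was −0.14 (SE 0.65). Among the chondrocyte markers themselves, 1 of 12 passed the cutoff, *Epyc*, a small proteoglycan of cartilage, with 8.93, 7.64, 9.56 and 8.05 log2 in KO mice 6, 7, 8 and 9, against 6.64, 7.62, 6.82 and 5.88 log2 in WT mice 1, 2, 3 and 5 (log2 fold change 1.80, SE 0.48, adjusted p = 0.848 from limma). The other 11 did not, and 0.725% of all probe sets passed in limma without a covariate. *Epyc* was above the negative control median on 8 arrays, above the 75th percentile on 5 and above the 95th on 1.

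Of 24 further growth plate signalling genes, 22 were measured, with 5 higher (among them *Sox5*, at 0.0) and 17 lower in KO mice. In limma 0 passed the cutoff and 1 had an unadjusted p under 0.05, as had 0.725% and 5.28% of all probe sets. The median log2 fold change was −0.23, against 0.03 over all probe sets and −0.08 over those above background on at least 4 arrays. All probe sets compared split into 11633 higher and 10573 lower. *Prkg2*, the cGMP-dependent kinase through which C-type natriuretic peptide promotes growth of the plate, had the smallest p. It was 9.86, 9.25, 10.89 and 9.55 log2 in KO mice 6, 7, 8 and 9, against 8.13, 9.17, 9.52 and 8.27 log2 in WT mice 1, 2, 3 and 5. Of the KO mice, 3 lay above every WT mouse, and the log2 fold change was 1.12 (SE 0.44, adjusted p = 0.848 from limma). *Npr2*, the receptor for the same peptide, had a log2 fold change of −1.09 (SE 0.67), and *Fgf18*, a ligand of FGFR3, one of −0.52 (SE 0.35, above background on 6 arrays). A last list held 16 genes related to the 10 by family, name or product, of which 15 were measured. Several of them, such as *Gli2*, also belong to the hedgehog or growth plate signalling list. Of the 15, 0 passed the cutoff (0 at an unadjusted p under 0.05 in limma), and the median log2 fold change was −0.02. The smallest p values of the 15 belonged to *Gli2* (−0.65, above background on 1 array), *Mgp* (0.53) and *Smpd1* (−0.40).

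*Panx3*, a channel protein of prehypertrophic chondrocytes and osteoblasts, had the largest difference of the 9 genes. KO mice 6, 7, 8 and 9 measured 10.79, 9.71, 10.94 and 9.24 log2, and WT mice 1, 2, 3 and 5 measured 8.29, 10.92, 8.26 and 8.53 log2. WT mouse 2 lay among the highest KO mice, while the other 3 WT mice lay below every KO mouse. Means of 10.17 ± 0.82 log2 in KO mice and 9.0 ± 1.28 log2 in WT mice (SD, n = 4 each) made it 2.25-fold higher in KO mice (log2 fold change 1.17, SE 0.62, 95% confidence interval −0.21 to 2.55, adjusted p = 0.848 from limma, exact permutation p = 0.2). Without WT mouse 2 the log2 fold change was 1.81 (SE 0.45, adjusted p = 0.669 from limma) and *Panx3* passed the study's cutoff, as did 1.25% of all probe sets. That was the highest log2 fold change of *Panx3* without a single mouse, and the lowest was 0.91, without KO mouse 8.

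Bone markers were set beside *Panx3*. The mean of 8 osteoblast and osteocyte markers was 10.12 to 10.36 log2 in KO mice and 9.47 to 10.62 log2 in WT mice, and it was highest of all in WT mouse 2 (exact permutation p = 0.2 between genotypes). With that mean as a covariate, also chosen after the values were seen, the log2 fold change of *Panx3* was 0.25 (SE 0.49). Of the 6 hypertrophic chondrocyte markers, 4 were measured, 3 were higher and 1 lower in KO mice (median log2 fold change 0.56), and 0 passed the cutoff in limma. *Ibsp*, a sialoprotein of mineralizing matrix, was the 1 with an unadjusted p under 0.05 (log2 fold change 1.12, SE 0.46). Over all probe sets, 5.28% had such a p. The collagenase gene *Mmp13* had 0.84 (SE 0.56), *Alpl*, which encodes the alkaline phosphatase of mineralizing cells, had 0.27 (SE 0.35), and *Col10a1*, the collagen that defines hypertrophic chondrocytes, had −0.43 (SE 0.38).

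*Ucma* and *Snorc* encode small cartilage proteins, a secreted matrix protein rich in Gla residues and a transmembrane proteoglycan of chondrocytes. *Ucma* was 16.22, 13.02, 14.85 and 14.41 log2 in KO mice 6, 7, 8 and 9, against 15.77, 14.91, 15.88 and 13.31 log2 in WT mice 1, 2, 3 and 5. Every value was above the 95th percentile of the negative controls, and both extremes were KO mice. The means were 14.63 ± 1.32 log2 in KO mice and 14.97 ± 1.19 log2 in WT mice (SD, n = 4 each), a log2 fold change of −0.34 (SE 0.71, 95% confidence interval −1.92 to 1.23, adjusted p = 0.916 from limma, exact permutation p = 0.714).

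*Snorc* was 12.04, 8.37, 11.35 and 10.15 log2 in KO mice 6, 7, 8 and 9, against 12.69, 10.47, 12.51 and 9.67 log2 in WT mice 1, 2, 3 and 5. As for *Ucma*, the spread within each genotype exceeded the gap between them, and KO mouse 7 was lowest. Means of 10.48 ± 1.61 log2 in KO mice and 11.33 ± 1.5 log2 in WT mice (SD, n = 4 each) gave a log2 fold change of −0.86 (SE 0.86, 95% confidence interval −2.77 to 1.06, adjusted p = 0.857 from limma, exact permutation p = 0.486). Without KO mouse 7 it was −0.15, and without WT mouse 5 it was −1.41.

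The promoter window of *Ucma* is shown because it was the 1 window of the 9 with a match to the letters of RUNX factors, which drive hypertrophic and bone genes. The sequence is from RefSeq, GRCm38.p6, chr2:4975872-4976171 on the plus strand, with the match in capitals at position −62 from the annotated start.
*Ucma*: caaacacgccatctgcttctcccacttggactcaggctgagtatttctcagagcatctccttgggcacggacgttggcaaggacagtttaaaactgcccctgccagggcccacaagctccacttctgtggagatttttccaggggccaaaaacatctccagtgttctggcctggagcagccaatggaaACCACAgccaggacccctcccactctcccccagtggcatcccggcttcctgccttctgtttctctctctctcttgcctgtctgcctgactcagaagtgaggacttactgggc
TGTGGT was searched on both strands and ACCACA is its reverse complement. Of all windows, 16.8% held a match, so that 1 in 9 is a description of these letters and no evidence of a binding site.

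*Smpd3*, the neutral sphingomyelinase that takes part in mineralization of cartilage and bone, had nearly equal means in KO and WT mice. KO mice 6, 7, 8 and 9 had 10.51, 11.39, 11.84 and 10.92 log2, and WT mice 1, 2, 3 and 5 had 11.40, 12.01, 10.81 and 10.10 log2. The KO range lay within the WT range, with means of 11.16 ± 0.58 log2 in KO mice and 11.08 ± 0.82 log2 in WT mice (SD, n = 4 each). The log2 fold change was 0.09 (SE 0.44, 95% confidence interval −0.90 to 1.07, adjusted p = 0.966 from limma, exact permutation p = 0.914), an interval that still includes a 1.75-fold change in either direction.

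Some of the genes varied together from mouse to mouse within both genotypes. Over the 8 mice, 72 relations were computed, 36 between pairs of the 9 genes and 36 of each gene with the control contrast and the chondrocyte, osteoblast and neutrophil marker means, and 3 had an adjusted p under 0.05 for Pearson's r by exact permutation. *Ucma* and *Snorc* had r = 0.942 (exact permutation p = 0.000471, adjusted p = 0.0339) and rho = 0.881 (exact p = 0.00724, adjusted p = 0.129). Leaving out KO mouse 7 and WT mouse 1 gave r = 0.917, and r was 0.967 within KO mice and 0.931 within WT mice.

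*Ptch1* and *Fgfr3* had r = 0.914 (exact permutation p = 0.00149, adjusted p = 0.0357) and rho = 0.881 (exact p = 0.00724, adjusted p = 0.129). Without KO mouse 7 and WT mouse 3, r was 0.862, with 0.945 within KO mice and 0.985 within WT mice. *Fgfr3* also followed the chondrocyte marker mean, with r = 0.907 (exact permutation p = 0.00141, adjusted p = 0.0357) and rho = 0.857 (exact p = 0.0107, adjusted p = 0.129). This relation held without KO mice 7 and 8 (r = 0.914), within KO mice (0.985) and within WT mice (0.997). *Ptch1* had r = 0.892 with the same mean (exact permutation p = 0.00417, adjusted p = 0.06, rho = 0.833, exact p = 0.0154, adjusted p = 0.158, r = 0.975 without the 2 farthest mice), which missed the threshold after adjustment.

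*Ihh* and *Panx3* had r = 0.881 (exact permutation p = 0.00283, adjusted p = 0.0509) and rho = 0.952 (exact p = 0.00114, adjusted p = 0.0821), with r = 0.869 without KO mouse 8 and WT mouse 2, although *Ihh* was at background. *Panx3* and the osteoblast marker mean had r = 0.872 (exact permutation p = 0.01, adjusted p = 0.103) and rho = 0.881 (exact p = 0.00724, adjusted p = 0.129), and r = 0.744 without WT mice 1 and 3. This relation did not hold within KO mice (r = 0.068), whose marker means spanned 10.12 to 10.36 log2, and it was 0.989 within WT mice. Each array carries 1 control contrast and 1 tissue composition, which the points of these relations share.

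**Figure D4:**
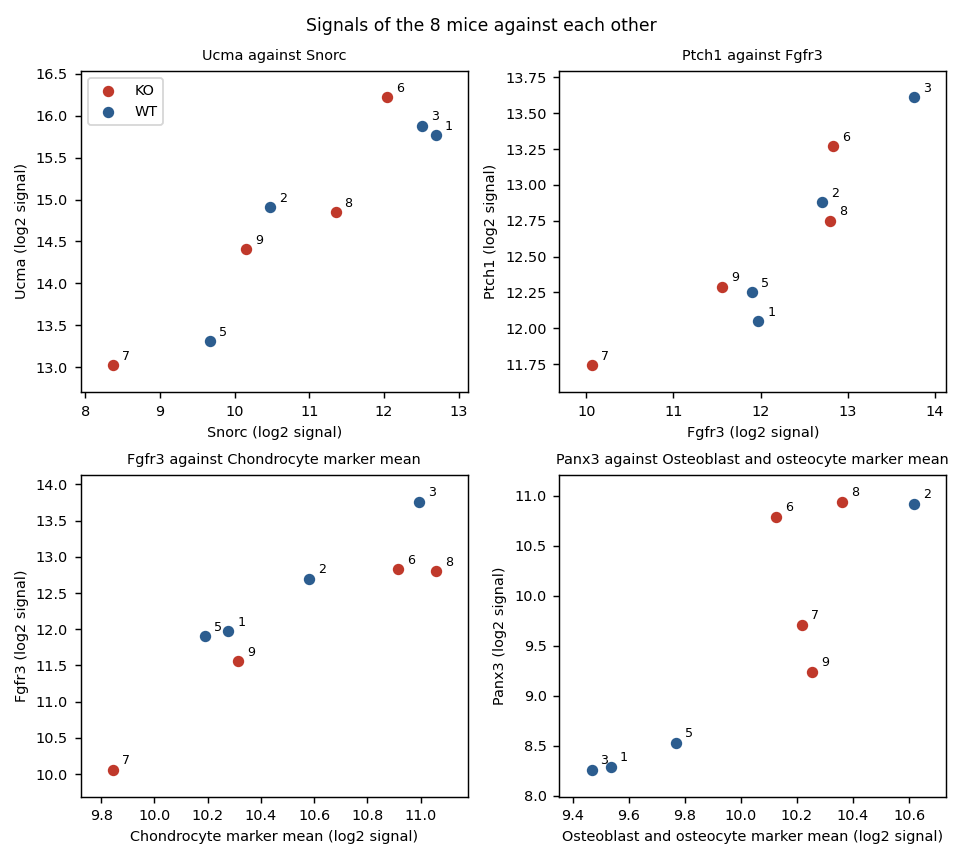
Log2 signal of 4 KO mice (first in the legend) and 4 WT mice in the plots of *Ucma* against *Snorc*, *Ptch1* against *Fgfr3*, *Fgfr3* against the chondrocyte marker mean and *Panx3* against the osteoblast marker mean, 1 point per mouse. Both genotypes run in the same direction in the first 3 plots (r = 0.942, 0.914 and 0.907), and in the last the 4 KO points span little of the marker axis.

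KO mouse 7 was lowest for 5 of the 9 genes (15.5% of all probe sets were lowest in it), and KO mouse 8 was highest for 3. Likeness to other genes could be measured for *Ptch1* and *Ucma*, the 2 genes above the 95th percentile of the negative controls on all 8 arrays, against 1095 named probe sets that met the same condition. Most like *Ptch1* over the 8 mice were *Ginm1* (r = 0.928, rho = 0.905), *Crtap* (r = 0.922, rho = 0.905), which encodes cartilage-associated protein, and *Mxra8* (r = 0.91, rho = 0.857). Most like *Ucma* were *Tmem30a* (r = 0.985, rho = 0.976), *Serpina1e* (r = 0.967, rho = 0.976), a member of a family of near-identical mouse genes whose probes may share signal, and *Fxyd1* (r = 0.954, rho = 0.952). These are the highest of 1095 values each and are given as a description.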

How the data were processed

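AF of the lumbar discs of 4 KO and 4 WT mice was measured on 1-colour Mouse Clariom S arrays, 1 array per mouse. The authors summarised the arrays in the Transcriptome Analysis Console, and the deposited values are log2 signal from its sst-RMA method. The genome build is not given in the sources used here. Detection p-values were not used here, so the study's detection filter was not repeated.

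Of 28846 probe sets, 6640 controls were left out and 22206 were compared, 2634 of them without a gene name (0 columns left out). Probe sets were named from the platform annotation. KO minus WT was modelled by lmFit and eBayes of limma 3.58.1 (R 4.3.3) with no covariates and no pseudocount, with Benjamini-Hochberg adjustment over all probe sets. The array methods name no test, so limma was used and the t-test named for other data was an alternative. Exact permutation tests were 2-sided, over 70 assignments of the mice or, for correlations, 40320 orders. Nothing in the sources used here says whether the mice were littermates, and the number of arrays limits the precision. Background was the median of each array's 5222 negative controls, and the control contrast the median of 1324 positive controls minus it. No 2 arrays held identical values.

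The genes and the lists were chosen with earlier results of these data known. All 9 measured genes were named with their values. Of the pathway lists, genes past the cutoff were named, and otherwise the 3 with the smallest p. Likeness took the 3 highest Pearson correlations for genes above the 95th percentile of the negative controls on all arrays. The fit was tested on simulated data. Alternatives were quantile normalization, median centring, a filter on low signal (above background on at least 4 arrays), another cutoff, array quality weights, robust priors with an intensity trend, the t-test, covariates (control contrast, neutrophil markers) and leaving out each mouse. Covariates of osteoblast and chondrocyte markers were added after seeing the data. Plots and tables used Python 3.11.15.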

Additional observations from a re-analysis of the deposited data

Results flagged for a closer look

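*Panx3* was the 1 gene with a mouse far from the others of its genotype, among 18 sets of 4 mice examined (9 genes in 2 genotypes), where chance alone marks about 1 in 20. WT mouse 2 stood at 10.92 log2 and the other WT mice at 8.26 to 8.53 log2, a gap of 0.896 of the whole WT range. The mean of the osteoblast and osteocyte markers was also highest in WT mouse 2 (10.62 log2), and its part in the *Panx3* value was not tested beyond the covariate model given with that gene.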

How the results depend on the processing

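Of 161 recalculated fold changes of the 9 genes, 147 kept their direction and their side of the cutoff, 12 changed sign and 2 passed the cutoff (*Panx3* without WT mouse 2, *Fgfr3* with the chondrocyte covariate). *Ihh* was lost from the filter on low signal. The log2 fold change of *Ptch1* was 0.0495 with quantile normalization, 0.0215 with the control contrast as covariate and −0.43 to 0.12 without single mice. That of *Ucma* was 0.0283 with array weights, 0.24 with the control contrast and −0.90 to 0.19 without single mice. With the control contrast *Snorc* had 0.22, with the osteoblast covariate *Smpd3* had −0.34, and without single mice *Smpd3* had −0.24 to 0.40. The cause was not tested. The count of the 9 genes past the cutoff, 0, was 1 with the chondrocyte covariate, 1 (*Ihh*) at the looser cutoff and 0 to 1 without single mice. For the other hedgehog genes it was 1 (*Csnk1a1*) with array weights and with the chondrocyte covariate and 0 to 1 without single mice (1 without KO mouse 8). For growth plate signalling it was 1 (*Prkg2*) with quantile normalization, the control contrast and the chondrocyte covariate, and 0 without any single mouse. Over all probe sets the count of 161 became 100 with the filter, 704 with array weights, 73 with the t-test, 71 with the control contrast, 59 with the neutrophil, 36 with the osteoblast and 243 with the chondrocyte covariate, and 49 (without WT mouse 3) to 992 (without KO mouse 8). No paired analysis was possible because KO and WT mice share no number. Signal near background limits *Ihh* and *Gli1*.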
